A study of Homo sapiens with 16 samples.

Results

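The enzymes of purine and pyrimidine nucleotide synthesis were followed in MCF10HER2 cells over 45 h of HER2 kinase inhibition. The set was chosen by name and holds 10 genes. PPAT, GART, PAICS, ADSL, ATIC, IMPDH1 and IMPDH2 serve the purine branch, and CAD, UMPS and CTPS serve the pyrimidine branch. The probes whose gene symbol equals one of these names were taken from the 20589 probes on the array, and where a gene had several the probe with the highest mean signal that was above background was used. Of the 10 genes, 9 had a probe above background on all 16 arrays and were tested among 12378 probes. MCF10HER2 (MCF-10HER-2 in the labels) is a line derived from the nontransformed breast epithelial line MCF10A and stably over expresses HER2. All cultures shared a serum-free, insulin-free medium with EGF and hydrocortisone. CP724,714, an inhibitor that acts on the kinase of HER2, was added to the treated cultures at 1 µM, and RNA was taken every 3 h from parallel cultures. The series holds 1 array for each of 16 time points, of which the 0 h array is the sole untreated one, so that later time points have no untreated or vehicle control among the arrays analysed here. Time in the inhibitor, time in renewed medium and culture density therefore cannot be told apart, and p-values measure only the scatter of single arrays about a line or curve in time.

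De novo purine synthesis builds the purine ring on phosphoribosyl pyrophosphate (PRPP) and ends at IMP, which is then turned into AMP or GMP. De novo pyrimidine synthesis makes the ring first and joins it to PRPP to give UMP, the source of UTP and CTP. Proliferating epithelial cells depend on both branches for RNA and DNA, and growth factor signaling is known to act on them through enzyme phosphorylation and through the transcription factor MYC.

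PPAT, which commits PRPP to purine synthesis, and PAICS, a later bifunctional enzyme of the same branch, lie head to head on chromosome 4, so that their start regions overlap. The windows shown are RefSeq promoter sequences (GRCh38.p14) from 250 bases before to 50 bases after a gene start. They are given because the 2 genes share this region and their courses can be set beside each other, and the window of ATIC is shown because it holds the same motif at 2 places. Capitals mark the E-box CACGTG, a palindrome that reads the same on both strands and is bound by MYC and related factors.
PPAT, chr4:56435566-56435865, minus strand: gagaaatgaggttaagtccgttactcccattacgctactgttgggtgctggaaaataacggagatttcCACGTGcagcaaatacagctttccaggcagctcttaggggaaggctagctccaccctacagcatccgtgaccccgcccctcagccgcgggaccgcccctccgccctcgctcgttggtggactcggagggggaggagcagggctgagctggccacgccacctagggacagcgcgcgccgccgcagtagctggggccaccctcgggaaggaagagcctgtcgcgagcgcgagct
PAICS, chr4:56435502-56435801, plus strand: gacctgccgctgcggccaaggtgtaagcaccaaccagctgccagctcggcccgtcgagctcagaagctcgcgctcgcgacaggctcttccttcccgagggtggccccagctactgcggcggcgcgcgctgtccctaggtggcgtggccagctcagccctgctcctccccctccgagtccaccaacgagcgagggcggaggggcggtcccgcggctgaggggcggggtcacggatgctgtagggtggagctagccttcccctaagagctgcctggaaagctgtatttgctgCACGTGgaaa
ATIC, chr2:215311809-215312108, plus strand: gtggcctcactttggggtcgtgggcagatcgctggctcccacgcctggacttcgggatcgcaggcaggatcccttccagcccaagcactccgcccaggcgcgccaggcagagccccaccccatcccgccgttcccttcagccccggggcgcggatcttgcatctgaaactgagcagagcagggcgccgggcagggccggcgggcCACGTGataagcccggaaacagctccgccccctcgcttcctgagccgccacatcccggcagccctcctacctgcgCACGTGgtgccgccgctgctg
The PPAT and PAICS windows overlap by 236 bases, and the E-box in each is the same site, chr4:56435792-56435797, read from opposite strands. Windows were found for 8 of the 10 genes, 13 in all (CTPS as CTPS1), and not for ADSL and IMPDH2. An E-box stood in a window of PPAT, PAICS and ATIC, 3 of the 8 genes and 3 of the 13 windows. The shared site is counted for both PPAT and PAICS, so these counts are not independent. Of all 27305 genes 8.77% held an E-box in a window, and of all 35116 windows of the same length 7.26% did. PAICS has 3 windows, of which only that shown holds the E-box or overlaps the window of PPAT. The E2F motif, searched as TTTCGCGC or TTTGGCGC on both strands, was present in 1 of the 3 windows of GART. It was in 1.15% of all windows and in a window of 1.4% of all genes. The amino acid response element TGATGNAA was in no window of the 10 genes. It was in 3.62% of all windows and in a window of 4.46% of all genes. A match of letters is a description of the window and no evidence of binding.

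Values are log2 intensities after background correction and quantile normalization, so a difference of 1 is a doubling, and levels are compared only within a probe. The arrays fell into 2 sets of 8. The background signal was 135.7 to 148.7 on the arrays of 0 to 21 h and 164.3 to 173.5 on those of 24 to 45 h. The labels give no chip, and because the sets follow the clock, any difference between them cannot be told apart from time. For this reason each gene was also fitted with its own level and slope within each set. The 9 h and 18 h arrays were dim, with an upper quartile intensity of 397 and 418 against 553 to 804 on the others, and 10504 to 11629 probes were above background on an array. The lowest correlation between any pair of normalized arrays, across probes, was 0.948. Of 9 epithelial markers 8 were tested. KRT5, KRT8, KRT17, KRT18, KRT19 and EPCAM (TACSTD1 in the table) were above background on all 16 arrays. CDH1 was so on 15, TP63 (TP73L in the table) on 14 and KRT14 on 1. Over 45 h KRT17 and KRT8 rose by 2.87 and 0.65 and KRT5 fell by 0.47 (limma adjusted p = 3.25e-06, 0.00652 and 0.00768). Later slopes were lower for KRT18 and EPCAM (-0.75 and -0.59, limma adjusted p = 0.0055 and 0.0185) and higher for KRT19 (2.27, 0.00219). COL1A1, COL1A2, PDGFRB and THY1 of the fibroblast list, CDH5 and VWF of the endothelial list and CD3D of the leukocyte list were not above background on any array. Other genes of these lists were: 1 of 6 fibroblast, 2 of 4 endothelial and 3 of 5 leukocyte markers were tested, with DCN, PECAM1, CD14 and CD68 above background on all 16 arrays, KDR on 15 and PTPRC on 7. DCN, PECAM1, CD14 and CD68 rose within 0 to 21 h, by 0.75, 2.03, 2.19 and 2.33 on the log2 scale (limma adjusted p = 0.0187, 0.000284, 2.98e-05 and 4.09e-05), while KDR and PTPRC did not pass (0.28 and -0.42, limma adjusted p = 0.426 and 0.0916). The slopes of PECAM1, CD14 and CD68 were lower in the later hours (differences of -2.53, -1.79 and -2.75 on the log2 scale per 21 h, limma adjusted p = 0.00146, 0.00178 and 0.000566), the direction of the enzymes described next, and their part in the enzymes' courses was not tested. For the 3 tested leukocyte markers the summed intensity before background correction and normalization was 987 to 2955 at 0 to 21 h. It was 1833 to 2742 at 24 to 45 h. That of the 2 endothelial markers was 401 to 556 and then 568 to 739. DCN had 229 to 412 and then 400.4 to 567. These sums also carry the brightness of each array. After both steps each gene was centred on its own mean. The median of the endothelial markers was then -0.70 to 0.35 at 0 to 21 h and -0.23 to 0.39 at 24 to 45 h. That of the leukocyte markers was -1.12 to 0.72 and -0.18 to 0.24. DCN lay at -0.55 to 0.32 and -0.080 to 0.58.

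GART, PAICS, ADSL and ATIC of the purine branch stood lowest at 3 or 6 h and highest between 15 and 24 h, whereas IMPDH1 was highest at 9 h and IMPDH2 at 42 h. At 6 h 8 of the 9 tested genes were below their 0 h level. At 30 h 8 of 9 were above it, and at 45 h 7 of 9 were below it. Neighbouring arrays were less one-sided. Those of 3 and 9 h had 6 and 5 genes below the 0 h level, and that of 42 h had 4. The 27 and 33 h arrays each had 6 genes above it. The share of all tested probes on either side of 0 h was not counted, so these counts only describe single arrays. A smooth course in time (natural cubic spline with 4 degrees of freedom, limma, Benjamini-Hochberg over all tested probes) passed the threshold of 0.05 for GART, PAICS, IMPDH1 and IMPDH2. That is 4 of 9, and over all tested probes 42.7% passed, so the share is near the background. The remaining tested genes had adjusted p-values of 0.0752 for ATIC, 0.0803 for CAD, 0.0855 for ADSL, 0.128 for CTPS and 0.667 for PPAT.

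**Figure D1:**
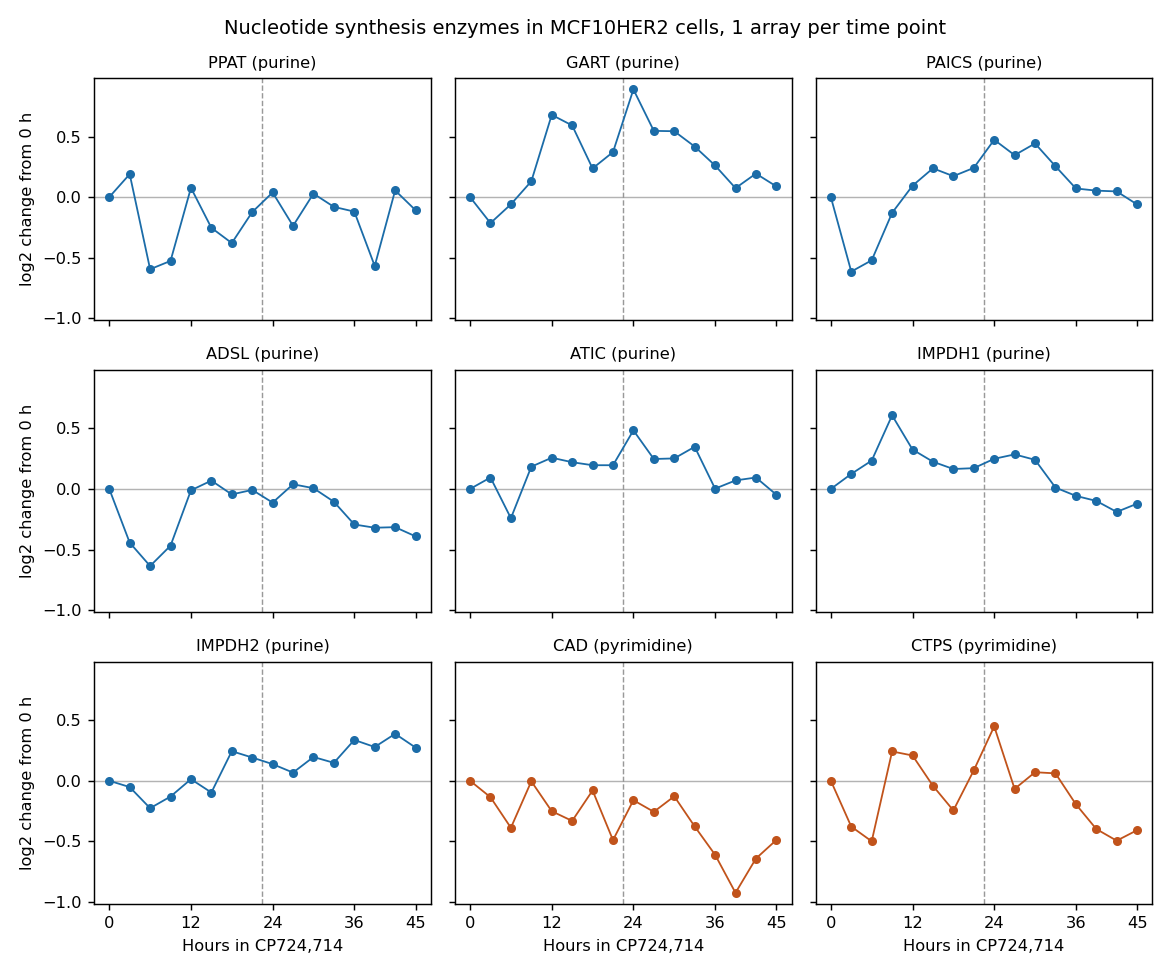
The log2 change from the 0 h array (vertical axis) of each of the 9 tested enzymes against hours in CP724,714 (horizontal axis), 1 point per array, purine genes in blue and pyrimidine genes in orange, with a dashed line between the 2 sets of 8 arrays. GART, PAICS, ATIC and CTPS are highest at 24 h, IMPDH2 at 42 h and CAD at 0 h.

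The slope in 24 to 45 h was lower than that in 0 to 21 h for 5 of the 9 genes, GART, PAICS, ADSL, ATIC and CTPS, by the limma test of the difference between the slopes. It was higher for none. Over all tested probes the slopes differed for 25%, with a lower slope in the later set for 12.9% and a higher slope for 12.1%. The median slope difference of the 9 genes was -0.73 (log2 per 21 h, later minus earlier), against 0.043 over all tested probes. Within 0 to 21 h GART and PAICS rose, 2 of 9, where 15.4% of all probes rose, and none of the 9 fell, where 15% did. Within 24 to 45 h GART and CTPS fell, 2 of 9, where 2.4% of all probes fell, and none rose, where 2.43% did. At an unadjusted limma p under 0.05 the counts of 0 became 0 for falls within 0 to 21 h, 1 for rises within 24 to 45 h (IMPDH2) and 0 for higher slopes.

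**Figure D2:**
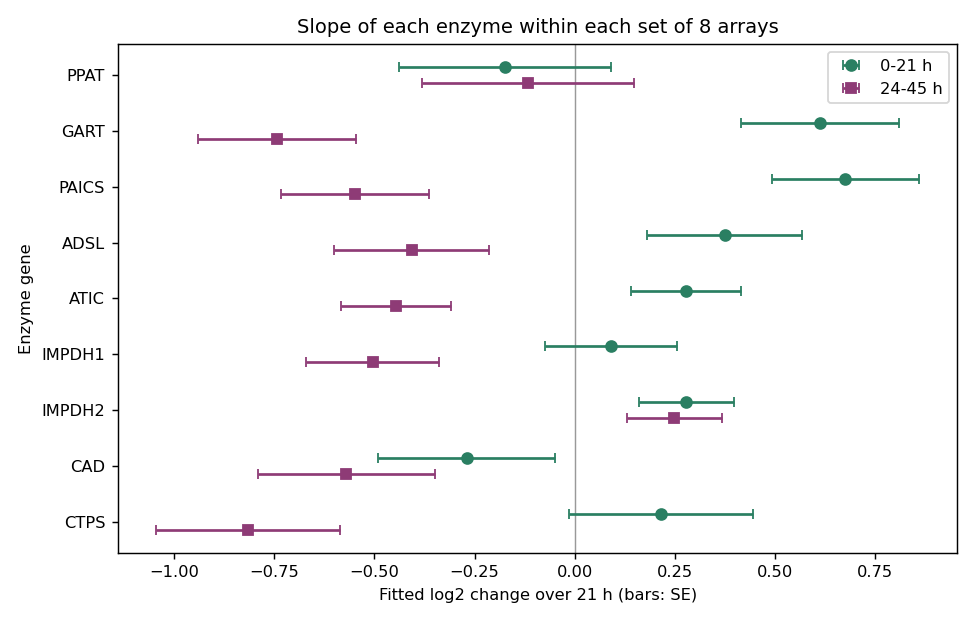
Fitted log2 change over 21 h (horizontal axis, points, with bars for the standard error) of each tested enzyme gene (vertical axis) within 0 to 21 h (circles) and within 24 to 45 h (squares). GART goes from 0.61 to -0.74 and PAICS from 0.68 to -0.55, whereas IMPDH2 has 0.28 and 0.25.

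GART, a trifunctional enzyme that acts at several early steps of the purine ring, had the widest fitted course of the set. Its log2 intensities on the arrays of 0, 3, 6 and 9 h were 10.81, 10.60, 10.75 and 10.94, and those on the arrays of 12, 15, 18 and 21 h were 11.49, 11.40, 11.05 and 11.18. From 24 to 33 h they were 11.70, 11.36, 11.35 and 11.23, and from 36 to 45 h they were 11.07, 10.88, 11.00 and 10.90. All 4 arrays of 24 to 33 h, at 11.23 or more, were above all 4 arrays of 36 to 45 h, at 11.07 or less. How many of all tested probes part between groups of arrays in such a way was not counted. This holds for GART and for each gene below whose groups of arrays do not overlap. The 24 h level of GART was 1.85-fold that at 0 h. GART rose by a fitted 0.61 ± 0.20 (SE) within 0 to 21 h (limma adjusted p = 0.0263) and fell by 0.74 ± 0.20 within 24 to 45 h (limma adjusted p = 0.0385). The slopes differed by -1.36 ± 0.28 (limma adjusted p = 0.00308), and this held without any 1 of the 16 arrays (adjusted p up to 0.017). The later fall alone was weaker, since leaving out any 1 of the 8 arrays from 24 to 45 h raised its adjusted p past the threshold, up to 0.252, and the earlier rise was lost without the 3 h or the 15 h array, at up to 0.105. A second GART probe, on which the deposited detection p-values do not follow the intensity, had a different early course, with its lowest value of 6.61 at 0 h and its highest of 8.36 on the dim 9 h array. Its slopes differed in the same direction, by -1.61 ± 0.47 (limma adjusted p = 0.0197).

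PAICS followed GART most closely among the 9 genes, with a root mean square difference between the centred courses of 0.16 on the log2 scale over 16 arrays. It stood at 12.83 at 0 h, was lowest at 3 h (12.21), was 12.31 at 6 h and 12.70 at 9 h, and lay between 12.92 and 13.07 from 12 to 21 h. It was highest at 24 h (13.30), held 13.08 to 13.27 from 27 to 33 h, and lay between 12.77 and 12.90 from 36 to 45 h. The arrays of 24 to 33 h were thus all above those of 36 to 45 h, and also above the 0 h array. PAICS rose by 0.68 ± 0.18 within 0 to 21 h (limma adjusted p = 0.0109), lost without the 3 h array (0.0575), and its slopes differed by -1.23 ± 0.26 (adjusted p = 0.0038), which held without any 1 array. Its later slope of -0.55 ± 0.18 missed the threshold (adjusted p = 0.0952).

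ADSL, which acts both in the ring pathway and on the way from IMP to AMP, was lowest at 6 h (11.85), had a median of 12.38 and was highest at 15 h (12.56), against 12.49 at 0 h. The 3, 6 and 9 h arrays, at 11.85 to 12.04, were all below the arrays of 12 to 45 h, of which the lowest was 12.10 at 45 h. ADSL had a slope difference of -0.78 ± 0.27 with a limma adjusted p of 0.0441, and 13 of the 16 leave-one-out fits put it past the threshold, at up to 0.0935. ATIC, which closes the purine ring to give IMP, ran from 12.24 at 6 h through a median of 12.67 to 12.96 at 24 h, and its arrays of 24 to 33 h (12.73 or more) did not overlap those of 36 to 45 h (12.58 or less). Its slopes differed by -0.73 ± 0.19 (limma adjusted p = 0.0126), lost only without the 24 h array, at 0.0516. Neither gene had a slope past the threshold within either set of arrays.

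PPAT passed no test. Its log2 intensity ran from 9.04 at 6 h through a median of 9.52 to 9.82 at 3 h, with a jump of 0.78 between neighbouring arrays, and its change over 45 h was 0.033 ± 0.20 (limma adjusted p = 0.929). The head-to-head neighbour PAICS was at its lowest on the 3 h array, where PPAT was at its highest. The log2 ratio of PAICS to PPAT, set against its 0 h value, ran from -0.80 at 3 h to 0.62 at 39 h. The pair was chosen with the values known, so no test is given.

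IMPDH1 and IMPDH2 catalyse the same reaction, the step from IMP toward GMP. IMPDH2 stood highest late in the course and IMPDH1 early. IMPDH2, the form known to go with proliferation, was 13.90 at 0 h, lowest at 6 h (13.67) and highest at 42 h (14.29). All 4 arrays of 36 to 45 h, at 14.17 or more, were above every other array. IMPDH2 rose by 0.47 ± 0.089 over 45 h in a straight line (limma adjusted p = 0.000723). It was the sole gene of the 9 that rose linearly, where 13.1% of all probes rose, and without any 1 array the adjusted p stayed at or under 0.0034. With the set of arrays as a term the change was 0.57 ± 0.18 with an adjusted p of 0.0685. That fit called 420 rises over all 12378 probes, against 1627 without the term. With blocks of 4 time points the change was 0.15 ± 0.35 (adjusted p = 0.905). The fit with blocks called 0 rises over all probes, so the loss of the call there says little of IMPDH2 itself. Within the sets the slopes were 0.28 ± 0.12 (adjusted p = 0.081) and 0.25 ± 0.12 (adjusted p = 0.236).

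IMPDH1, the other form, was 10.67 at 0 h, highest at 9 h (11.27, a dim array) and lowest at 42 h (10.48), with a median of 10.83. From 36 to 45 h it lay between 10.48 and 10.61, below all of the other arrays. Its spline course passed (limma adjusted p = 0.016), and its change over 45 h was -0.38 ± 0.14 with an adjusted p of 0.063. Its slope difference of -0.60 ± 0.23 also missed the threshold (limma adjusted p = 0.071). Of 16 leave-one-out fits 1 called that difference, the fit without the dim 9 h array (limma adjusted p = 0.0163). The deposited detection p-values of this probe, 0.0609 to 0.412, do not follow its intensities of 1261 to 2681, so its detection was judged here by intensity, and with the deposited p-values it would not have been tested. Median scaling in place of quantile normalization also ended its spline call (adjusted p = 0.0808). The log2 ratio of IMPDH2 to IMPDH1 was -0.74 against 0 h at 9 h and 0.58 at 42 h, a 1.49-fold shift from 0 h. On the arrays of 36 to 45 h IMPDH2 was above and IMPDH1 below every other array of its own course. The ratio is given as a description, since the pair was chosen with the values known.

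Among the pyrimidine enzymes CAD, the trifunctional protein that starts the pathway and a known target of growth factor signaling, was highest before the inhibitor was added. Its log2 intensity was 8.64 at 0 h, had a median of 8.35 and was lowest at 39 h (7.72), and its arrays of 36 to 45 h (7.72 to 8.15) did not overlap those of 24 to 33 h (8.27 to 8.51). Of the arrays before 24 h, only that of 21 h (8.15) lay within the range of the latest 4. CAD fell by 0.56 ± 0.17 over 45 h in a straight line (limma adjusted p = 0.0243), the sole gene of the 9 that fell, where 11.3% of all probes fell. The call was lost without the 0 h, 39 h or 42 h array (adjusted p up to 0.0682) and with median scaling (0.34). It was also lost with the set of arrays as a term (-0.90 ± 0.35, adjusted p = 0.131). With blocks of 4 time points it was lost too (-0.23 ± 0.64, adjusted p = 0.922). Over all probes the fit with the set called 387 falls and that with blocks 1, against 1402 without them. Losing the call with blocks thus says little of CAD itself. The slopes within the sets were -0.27 ± 0.22 and -0.57 ± 0.22, in the same direction and each short of the threshold (adjusted p = 0.382 and 0.147).

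CTPS (CTPS1), which makes CTP from UTP, was highest at 24 h, as were GART, PAICS and ATIC. It stood at 10.27 before treatment, was lowest at 6 h (9.77), reached 10.71 at 24 h and lay at 9.77 to 10.07 from 36 to 45 h, below all of the arrays of 24 to 33 h (10.20 or more). CTPS fell by 0.82 ± 0.23 within 24 to 45 h (limma adjusted p = 0.049), a call that 11 of the 16 leave-one-out fits put past the threshold, at up to 0.286. Its slopes differed by -1.03 ± 0.33 (adjusted p = 0.0277), lost without the 3, 21, 24 or 42 h array, at up to 0.105. UMPS, which makes UMP, was not above background on any of the 16 arrays and was not tested. Its intensities were 144 to 205, with detection p-values of 0.107 to 0.766.

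Side by side, the median change of the 7 purine genes from 0 h on the log2 scale was -0.24 (6 h), 0.25 (24 h), 0.0024 (36 h) and -0.061 (45 h). The mean of CAD and CTPS was -0.44, 0.14, -0.40 and -0.45 at the same times. At 24 h it joins opposite changes, 0.45 for CTPS and -0.16 for CAD. The purine median was the higher on 14 of the 15 treated arrays, but not at 9 h (-0.13 against 0.12). A median of 7 genes and a mean of 2 are also unlike measures. All of these changes are taken from the lone 0 h array, on which CAD was at its highest, so the order of the branches at any one time is not read from them. The median of all tested probes stayed within -0.0076 and 0.018. Quantile normalization gives every array the same distribution and so largely fixes this median. It is thus no measure of a stable background. The members of a branch are not replicates of a condition and rest on the same arrays, so the difference between branches was not tested. The study used a change of 1.7-fold at any time to admit genes to its comparison with MCF10A cells. There a 2-fold ratio between the lines was the later criterion, which is not applied here. With 1.7-fold taken against the 0 h array, GART passed upward at 24 h. CAD passed downward at 39 h, 1.90-fold below 0 h. That is 2 of 9, where 45.5% of all tested probes passed, 24.8% upward and 23.1% downward. Leaving out the 24 h array ended the pass of GART and leaving out the 39 h array that of CAD.

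The other genes of nucleotide metabolism, a list of 82 of which 66 were tested, moved in both directions. Of the 66, 24 had a lower and 3 a higher slope in the later set, where 12.9% and 12.1% of all tested probes did. Within 0 to 21 h 24 rose and 8 fell, where 15.4% and 15% of all probes did, and within 24 to 45 h 1 rose and 6 fell, where 2.43% and 2.4% did. Over 45 h 14 rose and 11 fell, where 13.1% and 11.3% did, and 41 had a time-dependent course, where 42.7% did. The median slope difference was -0.62.

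Of the genes that complete the purine branch, GMPS, which makes GMP from the product of IMPDH, was highest at 24 h. Its log2 intensity went from 11.08 (0 h) to 11.95 (12 h), 12.41 (24 h) and 11.81 (45 h), and the 24 h level was 2.53-fold above 0 h. It rose by 0.67 ± 0.23 over 45 h (limma adjusted p = 0.037) and by 1.06 ± 0.17 within 0 to 21 h (adjusted p = 0.000249), and its slopes differed by -1.54 ± 0.23 (adjusted p = 0.000691). PRPS1, which makes PRPP, went from 10.12 at 0 h and 10.37 at 9 h to 8.85 at 45 h, a fall of 1.25 ± 0.18 on the log2 scale (adjusted p = 5.19e-05) with slopes below 0 in both sets (-0.67 and -1.18, adjusted p = 0.00955 and 0.00114). PRPS2, a second PRPP synthetase, rose by 0.87 ± 0.31 within 0 to 21 h (limma adjusted p = 0.0417) and had a slope difference of -1.46 (adjusted p = 0.0218). PRPSAP1, a PRPP synthetase-associated protein, rose by 0.83 ± 0.19 over 45 h (limma adjusted p = 0.00358). ADSS, the step from IMP toward AMP, rose by 0.51 ± 0.18 within 0 to 21 h (limma adjusted p = 0.0438). PFAS, a ring step, passed no test (slope difference -0.86 ± 0.35, adjusted p = 0.079).

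In the pyrimidine branch DHODH, the mitochondrial step, was above background on 4 arrays and passed no test (change over 45 h -0.18 ± 0.14, limma adjusted p = 0.401). CTPS2, the second CTP synthase, rose from 8.10 at 0 h and 7.30 at 3 h to 9.57 at 12 h and then lay between 9.40 and 9.70 until 45 h. Its change over 45 h was 1.58 ± 0.38 (limma adjusted p = 0.005), and 2.16 ± 0.34 of rise fell within 0 to 21 h (adjusted p = 0.000243), while the slope of the later set was -0.095 ± 0.34. A second CTPS2 probe was not above background on any array. The log2 ratio of CTPS2 to CTPS was 0.99 above its 0 h value at 24 h and 1.81 above it at 45 h, a 3.5-fold shift. This pair too was chosen after the values had been seen, and its ratio is a description with no test.

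**Figure D3:**
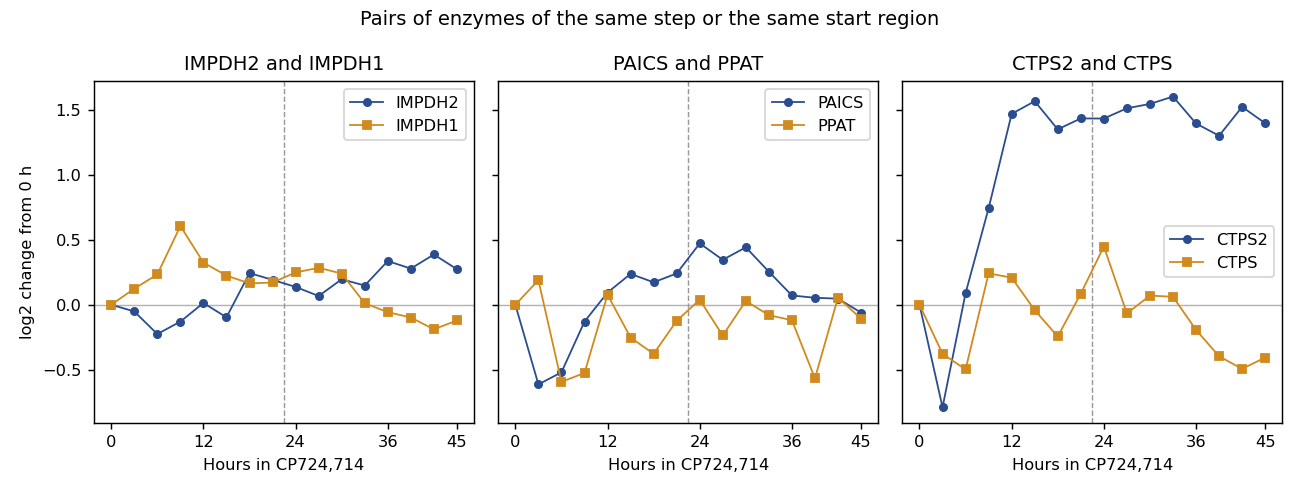
Log2 change from the 0 h array (vertical axis) against hours in CP724,714 (horizontal axis) for IMPDH2 and IMPDH1, PAICS and PPAT, and CTPS2 and CTPS, 1 point per array, with a dashed line between the 2 sets of arrays. CTPS2 stays 1.30 or more above its 0 h level from 12 h on, while CTPS returns below its own by 45 h (-0.41).

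In purine salvage and interconversion 13 of 14 genes were tested, of which 5 had a lower and 1 a higher slope in the later set. Over all tested probes 12.9% had a lower and 12.1% a higher slope. GMPR2, which returns GMP to IMP, rose by 0.82 ± 0.13 over 45 h (limma adjusted p = 0.000162), and AK3, a mitochondrial nucleotide kinase, rose by 0.63 ± 0.093 (limma adjusted p = 9.3e-05). In pyrimidine salvage and phosphorylation 16 of 17 were tested, with 4 lower and 1 higher slope. UPP1, uridine phosphorylase, was the higher one and fell by 2.78 ± 0.32 over 45 h (limma adjusted p = 6.78e-06), from 14.30 at 0 h to 11.52 at 45 h. The detection p-values of this UPP1 probe do not follow its intensity either, and a dim second probe fell by 1.08 (adjusted p = 0.00955). NME7, of the nucleoside diphosphate kinase family, fell by 0.94 ± 0.15 (limma adjusted p = 0.000194).

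In deoxynucleotide synthesis 8 of 9 genes were tested, 4 rose within 0 to 21 h and 5 had a lower slope later, with a median slope difference of -1.77. Over all tested probes 15.4% rose within 0 to 21 h and 12.9% had a lower slope later. RRM2, the small subunit of ribonucleotide reductase, had log2 intensities of 8.80 (0 h), 6.67 (6 h), 10.14 (24 h) and 8.17 (45 h), with a slope difference of -4.26 ± 1.04 (limma adjusted p = 0.00777). RRM1, its large subunit, had a slope difference of -2.38 ± 0.70 (limma adjusted p = 0.0204). These genes were named for their changes over 45 h, 0.60 for RRM2 and 0.84 for RRM1, which did not pass (limma adjusted p = 0.621 and 0.212). By slope difference TYMS, thymidylate synthase, at -2.80 ± 0.81 (limma adjusted p = 0.0178), stood ahead of RRM1, and it was picked out after its value had been seen. Of 6 tested genes of folate one-carbon supply, MTHFD2, the mitochondrial enzyme, fell by 0.82 ± 0.26 over 45 h (limma adjusted p = 0.0285), and MTHFD1, its cytosolic relative, had a slope difference of -1.30 ± 0.42 (limma adjusted p = 0.0326). Of 10 tested genes of nucleotide breakdown 4 had a lower slope later. XDH, xanthine dehydrogenase, fell by 1.63 ± 0.29 (limma adjusted p = 0.000488) and NP (PNP), purine nucleoside phosphorylase, fell by 1.24 ± 0.20 (limma adjusted p = 0.000184). Of 3 tested nucleoside transporters SLC29A2 rose by 1.02 ± 0.24 over 45 h (limma adjusted p = 0.00373) and SLC29A3 had a higher slope in the later set by 3.23 ± 0.45 (limma adjusted p = 0.000504).

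**Figure D4:**
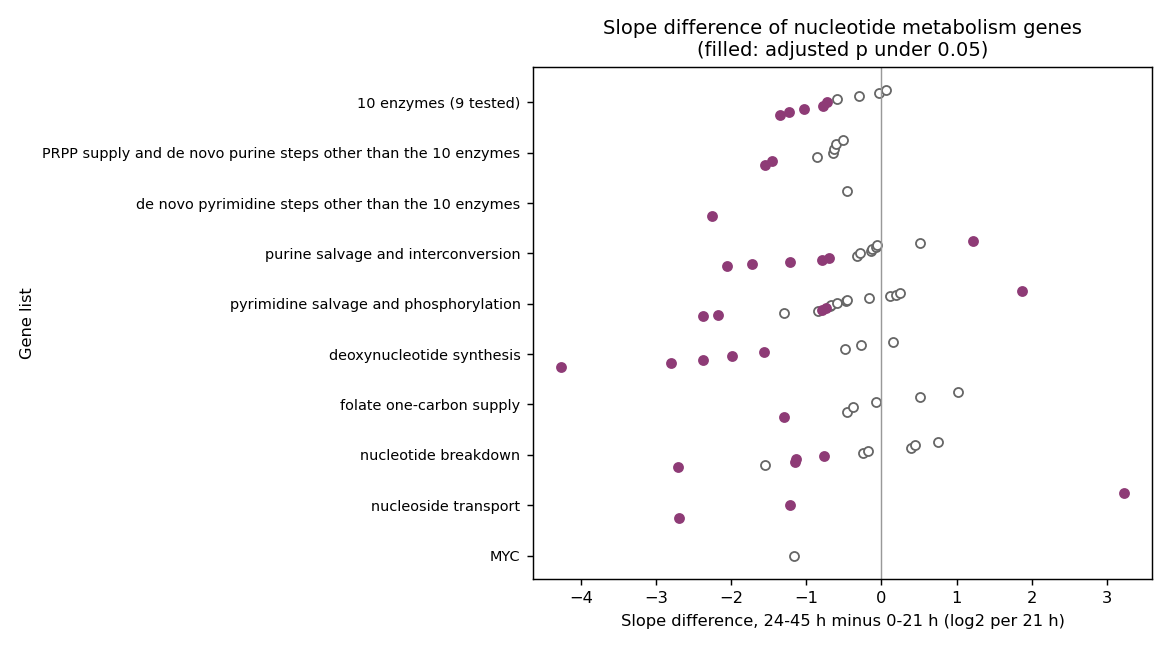
Slope in 24 to 45 h minus slope in 0 to 21 h (horizontal axis, log2 per 21 h) of each tested gene, 1 point per gene, by list (vertical axis), with filled points where the adjusted p was under 0.05. Of the 9 tested enzymes 5 are filled, all left of 0, and RRM2 at -4.26 and SLC29A3 at 3.23 are the outermost points.

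MYC, a transcription factor known to act on many of these genes, had log2 intensities of 12.36 (0 h), 10.20 (3 h) and 12.52 (6 h), so that it stood 4.49-fold below its 0 h level on the 3 h array. It passed no test (spline adjusted p = 0.627, limma). Cell cycle genes were set beside the enzymes. Of 16 G1/S genes 10 had a lower and 1 a higher slope in the later set, where 12.9% and 12.1% of all tested probes did. The G1/S genes had a median change of 0.79 within 0 to 21 h and -0.93 within 24 to 45 h. The median of their levels, each gene centred on its own mean, was 0.12 (0 h), -0.83 (6 h), 0.50 (24 h) and -0.27 (45 h). Of 18 G2/M genes 7 had a lower and none a higher slope, with medians of 1.22 and -0.40. The part of cell cycle position in the enzymes' courses was not tested, and in bulk RNA fewer cells with a transcript and less of it per cell cannot be told apart.

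The genes outside the list whose centred courses lay closest to the 3 enzymes of widest fitted course were named by root mean square difference over the 16 arrays. For GART they were EHBP1 (0.10), LHX2 (0.12) and EIF2AK2 (0.13), for PAICS they were PRDX3 (0.12), CYB5A (0.12) and DEK (0.12), and for CTPS they were AGPAT5 (0.12), PAK1IP1 (0.13) and CACYBP (0.13), on the log2 scale. The standard deviation of the course itself was 0.30 for GART, 0.30 for PAICS and 0.29 for CTPS.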

How the data were processed

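Total RNA of 16 cultures was measured on Illumina human Ref-8 v2 beadchips after amplification to biotinylated cRNA, per the labels. The authors deposited the intensity of each probe without normalization and a detection p-value per probe and array. The methods of the study name quantile normalization. On 1482 rows (7.2%) the deposited detection p-values were not multiples of 1/708, as they were on the rest (tolerance 0.01), and did not follow the intensity; where these rows came from is not given in the sources used here. They were kept, but left out of the negative control moments, and their detection was judged by intensity against the array's lowest intensity with p under 0.05.

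Intensities were corrected by the neqc method in limma 3.58.1 (R 4.3.3; offset 16, quantile) and taken to log2. Probes above background on 3 or more arrays were tested with lmFit and eBayes (mean-variance trend) on a 4 df spline, on a line over 45 h, and on a line within 0 to 21 h and 24 to 45 h. P-values were adjusted by Benjamini-Hochberg over all 12378 tested probes. The fits were also run on simulated courses of known change with independent noise. The simulation held no difference between the sets of arrays and no dim arrays, so it does not bear on these. The samples were grouped by the time in the labels, and the number of arrays limits the precision. The enzymes, lists and tests were chosen with earlier results of these data known. The text names the 10 enzymes, the genes that complete a branch, MYC, the 2 genes per list with the largest change among those past a threshold, and the 3 nearest courses of 3 enzymes. Probe sequences were not used here. Alternatives covered background correction, scaling, filters, array weights, probe choice, blocks, baseline and each array left out.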

Additional observations from a re-analysis of the deposited data

Results flagged for a closer look

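The slope in time of 5 enzymes differed between 0 to 21 h and 24 to 45 h by a test of the difference itself (limma, Benjamini-Hochberg over all tested probes), later minus earlier per 21 h on the log2 scale. The difference was -1.36 for GART, -1.23 for PAICS, -1.03 for CTPS, -0.78 for ADSL and -0.73 for ATIC. That is 5 of 9 tested enzymes, all lower later. Over all tested probes the slopes of 25% differed, with 12.9% lower later. Of 16 fits with 1 array left out, 16 kept the call for GART and for PAICS and 15 for ATIC. CTPS kept it in 12 and ADSL in 3. Each of the 2 spans of time is also 1 of the 2 sets of arrays, so what the sets share beside time cannot be told apart from it.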

How the results depend on the processing

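No paired analysis was possible because every group is a lone array. The number of enzymes with a time-dependent course was 4, and 3 to 6 under the 14 alternatives. GART, PAICS and IMPDH2 passed under each of them. Over all tested probes 5284 were time-dependent, against 4766 with median scaling and 7040 with array weights. The number whose slopes differed was 5, and 4 or 5 under 11 alternatives, with GART, PAICS, ATIC and CTPS called each time. With median scaling or without the 9 h and 18 h arrays IMPDH1 was called (limma adjusted p = 0.0308 and 0.0224) and ADSL was not. Over all tested probes 3091 slopes differed, 2391 to 3226 under these alternatives and 2240 to 3995 with 1 array left out. The number that rose within 0 to 21 h was 2, and 0 with median scaling or with each set fitted alone and 1 with array weights. The number that fell within 24 to 45 h was 2, and 0 with median scaling or without the detection filter. It was 7 with array weights or with each set fitted alone. With either of these settings 1 rose there (IMPDH2). Calls over all probes within either set were not counted under these settings, so the 7 is not read as a result about the enzymes. The number that rose over 45 h was 1, and 0 with the set or blocks of 4 time points as a term. The number that fell over 45 h was 1, and 0 with median scaling and with either of those blocks. It was 2 with cyclic loess and 5 with array weights. Over all probes 1627 rose and 1402 fell, against 420 and 387 with the set and 0 and 1 with blocks of 4. Falls over all probes were 794 with median scaling, 1431 with cyclic loess and 2281 with array weights. The number past 1.7-fold was 2, and 1 with normexp at an offset of 50, without background correction or with control moments from all rows (chosen after seeing the data), 5 with median scaling, and 0 against the median of the 16 arrays, at 2-fold or over 2 consecutive time points. Over all probes 5626 passed, against 6471 with median scaling. With normexp at an offset of 50 it was 3821, without background correction 2630 and with control moments from all rows 2395. Against the median of the 16 arrays 3888 passed, at 2-fold 3366 and over 2 consecutive time points 3636. The cause of the changed counts was not tested, other than that a stricter criterion passes fewer genes. Leaving out 1 array gave 4 to 5 time-dependent courses, 3 to 6 slope differences (3 without the 3, 21, 24 or 42 h array), 0 to 4 rises within 0 to 21 h (0 without the 3 h, 1 without the 15 h and 4 without the 0 h array), 0 to 3 falls within 24 to 45 h (0 without any 1 of its 8 arrays), 1 linear rise, 0 to 2 linear falls (0 without the 39 or 42 h, 2 without the 3 h array) and 1 to 2 genes past 1.7-fold.

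Median scaling moved the median change of all probes over 45 h from 0.0048 to 0.10 and the split of linear calls from 1627 up and 1402 down to 1874 up and 794 down. Changes over 45 h that turned their sign were short of the threshold in the fit reported. With array weights PPAT had -0.023, GART -0.52 (adjusted p = 0.0349, limma), PAICS -0.15, ADSL -0.44 (adjusted p = 0.01, limma) and ATIC -0.27. With the set as a term PPAT had -0.31, GART -0.14, ADSL -0.034 and ATIC -0.18. With blocks of 4 time points PPAT had -0.95, GART -0.95, PAICS -0.33, ADSL -0.75, ATIC -0.20 and IMPDH1 0.14. Without the 9 h and 18 h arrays PPAT had -0.068 and ADSL -0.053. ADSL had -0.00017 with normexp, -0.00058 without background correction and -0.032 with cyclic loess, where ATIC had -0.0016, and GART had -0.044 as the mean of its probes. The slope difference of PPAT was -0.26 with median scaling, and that of IMPDH2 was 0.12 with cyclic loess and 0.059 without the 9 h and 18 h arrays. Leaving out 1 array gave changes over 45 h of -0.087 to 0.16 for PPAT, -0.13 to 0.086 for ADSL and -0.055 to 0.15 for ATIC, and slope differences of -0.13 to 0.22 for PPAT and -0.18 to 0.057 for IMPDH2. The slope difference of ADSL ended with median scaling (adjusted p = 0.114), cyclic loess (0.0807), no detection filter (0.0601), control moments from all rows (0.0501) and without the 9 h and 18 h arrays (0.0558).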
